A study of Komagataella pastoris with 12 samples.

Results

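The core glycolytic pathway of *Komagataella phaffii* was followed through the 10 genes that encode its enzymes from glucose-6-phosphate isomerase to pyruvate kinase. They were taken by gene identifier, without regard to their level, from the 5080 transcripts of the deposited table, and the deposited description of each of the 10 named the enzyme. The 12 RNA-seq libraries came from the thermotolerant strain G14 grown at 37 °C (G14_37), G14 grown at 30 °C (G14_30), the parent grown at 37 °C (Parent_37) and the parent grown at 30 °C (Parent_30), with 3 biological replicates per group. All cells were harvested in logarithmic growth in YPD, a rich medium with glucose. The parent is a recombinant GS115 strain that expresses a lipase, and G14 was derived from it. G14 is a single isolate, obtained by plasma mutagenesis (ARTP) followed by adaptive evolution at stepwise rising temperatures, so every comparison of the strains rests on 1 evolved clone. Levels are given in FPKM, fragments normalised to gene length and sequencing depth, which can be compared between genes because they are per length.

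Glycolysis splits glucose into pyruvate in the cytosol and yields ATP and NADH. In its upper part a hexose phosphate is isomerised, phosphorylated a second time and cleaved into triose phosphates, and in its lower part the triose phosphates are oxidised and converted to pyruvate with ATP formed at the kinase steps. Most of the enzymes also run in reverse during gluconeogenesis, while phosphofructokinase and pyruvate kinase work only in the glycolytic direction. In yeasts growing on glucose these genes are among the most highly expressed, and the promoter of the glyceraldehyde-3-phosphate dehydrogenase gene, called GAP, is widely used in *K. phaffii* as a constitutive promoter for recombinant proteins.

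The symbols used here follow the *Saccharomyces cerevisiae* names of the enzymes, and positions are those of the deposited table. On chromosome 1 lay *PFK2* (PAS_chr1-4_0047, 1496126 to 1498952), which encodes the beta subunit of phosphofructokinase, *FBA1* (PAS_chr1-1_0072, 680765 to 681850), which encodes fructose-bisphosphate aldolase, and *PGK1* (PAS_chr1-4_0292, 1943024 to 1944274), which encodes phosphoglycerate kinase. On chromosome 2 lay *PFK1* (PAS_chr2-1_0402, 739529 to 742498) for the alpha subunit of phosphofructokinase, *TDH3* (PAS_chr2-1_0437, 807591 to 808592) for glyceraldehyde-3-phosphate dehydrogenase, and *CDC19* (PAS_chr2-1_0769, 1465321 to 1466838) for pyruvate kinase. On chromosome 3 lay *PGI1* (PAS_chr3_0456, 878576 to 880258) for glucose-6-phosphate isomerase, *GPM1* (PAS_chr3_0826, 1599170 to 1599916) for phosphoglycerate mutase, *ENO1* (PAS_chr3_0082, 183587 to 184897) for enolase, and *TPI1* (PAS_chr3_0951, 1852579 to 1853436) for triose phosphate isomerase. No 2 of the genes are neighbours. For *PFK2* and *TPI1* the span exceeded the counted gene length, by 70 and 111 bases, and for the other 8 the span and the counted length were equal.

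The libraries held 13428637 to 22047040 fragments assigned to genes, with a median of 15412799, and every member had between 2990 and 392403 fragments in every library, so counting error was small beside the spread between replicates. Over all transcripts, the log2 levels of replicates correlated at 0.977 to 0.996 in G14_30, Parent_37 and Parent_30. In G14_37 the correlations of replicate 1 with replicates 2 and 3 were 0.880 and 0.863, and that of replicates 2 and 3 was 0.959, so G14_37 replicate 1 stood apart from its group. Calls that were lost when it was left out are given with their value without it.

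Averaged over the 12 libraries, *TDH3* had the highest level of the 10 genes at 7810 FPKM and was the 6th most abundant of the 5080 transcripts. *ENO1* at 3254 FPKM, *FBA1* at 2722, *GPM1* at 2672 and *PGK1* at 2368 followed, and all 4 were among the 67 most abundant transcripts. *CDC19* averaged 1542 FPKM, *TPI1* 1042 and *PGI1* 974. The 2 phosphofructokinase subunits were lowest, at 327 FPKM for *PFK1* and 259 for *PFK2*, with ranks of 500 and 666. In every one of the 12 libraries *TDH3* was highest, while neighbours in the order were often not distinct. In Parent_30, *ENO1*, *FBA1* and *GPM1* averaged 4938, 4880 and 4746 FPKM and exchanged places between replicates. The place of *PGK1* in this order changed with the group. It was 2nd in G14_37, 4th in G14_30, 8th in Parent_37 and 5th in Parent_30.

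**Figure D1:**
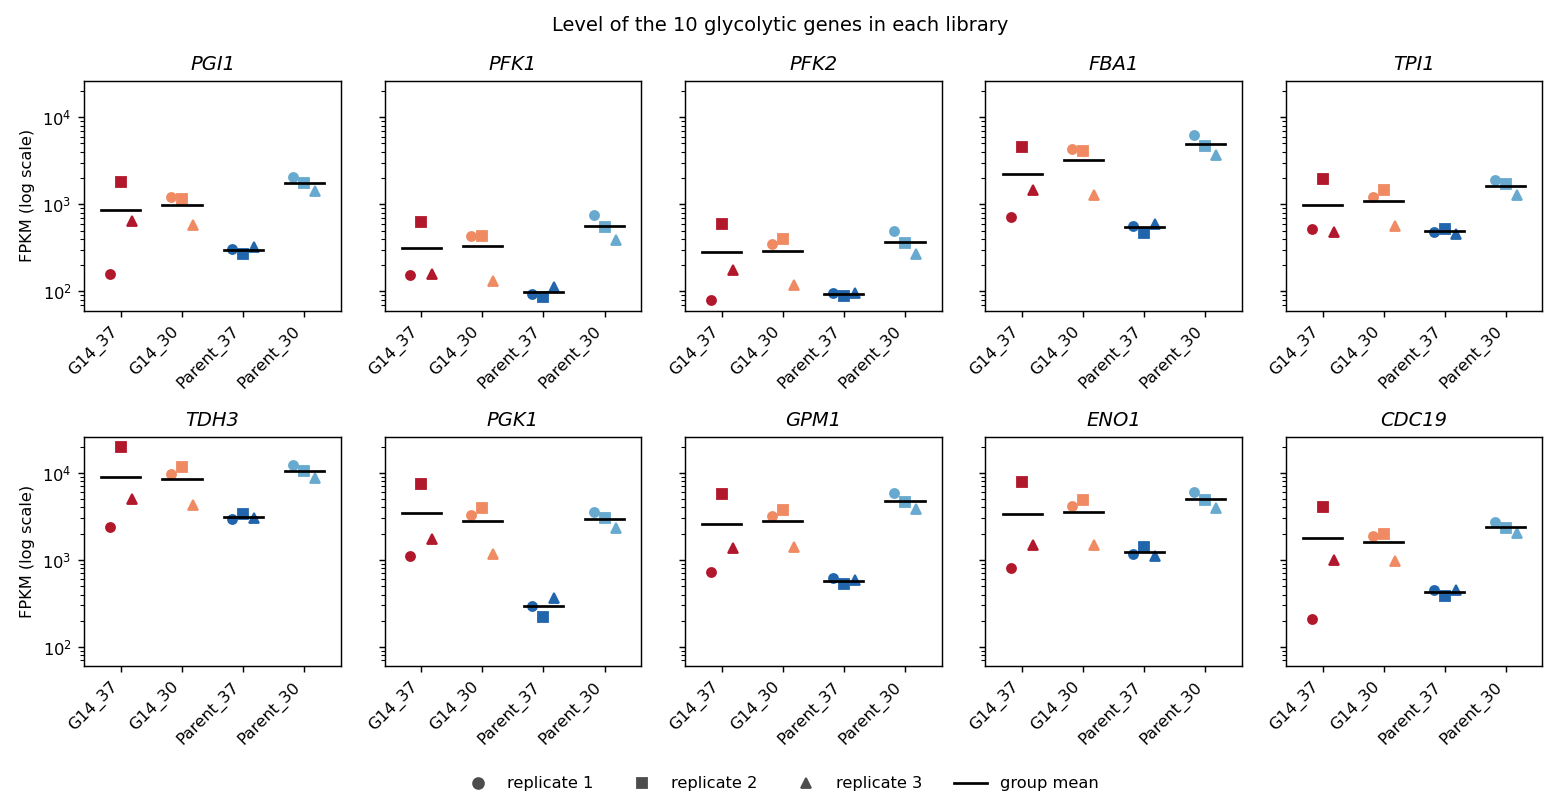
FPKM of each of the 10 genes (log scale) in the 12 libraries, with G14_37, G14_30, Parent_37 and Parent_30 from left to right in each panel, a symbol per replicate and a line at the group mean. In every panel the 3 Parent_37 libraries lie below the 3 Parent_30 libraries, and G14_37 replicate 2 lies above the other G14_37 libraries.

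The first question was how growth at 37 °C changed these genes in the parent. All 10 fell in Parent_37 vs. Parent_30, by 3.32-fold (*TPI1*) to 10.2-fold (*PGK1*) between the group means, and the fall ran through the whole pathway. Differences were tested with limma on log2(FPKM + 1) over all 5080 transcripts, and calls required an absolute log2 fold change above 1 together with an adjusted p (Benjamini-Hochberg) below 0.05. All 10 genes were called lower, against 7.56% of all transcripts. In all 10 every Parent_37 library lay below every Parent_30 library, as in 35.0% of all transcripts. The median log2 fold change of the 10 genes was -2.46, against 0.04 over all transcripts. FPKM describe a gene's part of the RNA of a culture, so fewer cells expressing a gene and less of its RNA per cell cannot be told apart.

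In the upper part of the pathway, *PGI1*, which links glucose-6-phosphate to fructose-6-phosphate, had 310, 270 and 326 FPKM in Parent_37, against 2054, 1762 and 1415 FPKM in Parent_30. *PFK1* had 94.2, 86.2 and 113 FPKM in Parent_37, against 745, 555 and 388 FPKM in Parent_30. *PFK2* had 96.8, 88.9 and 96.5 FPKM in Parent_37, against 490, 357 and 268 FPKM in Parent_30. The subunits of phosphofructokinase, the enzyme that commits hexose phosphate to glycolysis, thus came to nearly the same level at 37 °C, with group means of 97.7 and 94.1 FPKM, whereas at 30 °C the alpha subunit was the higher one in all 3 replicates. The log2 fold changes were -2.51 for *PGI1*, -2.47 for *PFK1* and -1.93 for *PFK2*. *FBA1*, whose aldolase cleaves fructose-1,6-bisphosphate, had 565, 474 and 591 FPKM in Parent_37, against 6207, 4710 and 3722 FPKM in Parent_30. Its log2 fold change was -3.14 (SE 0.62, adjusted p = 0.00118). *TPI1*, which interconverts the triose phosphates, had 482, 526 and 456.2 FPKM in Parent_37, against 1906, 1689 and 1269 FPKM in Parent_30. *TPI1* had the smallest log2 fold change of the 10 genes, at -1.71 (SE 0.50, adjusted p = 0.0119).

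In the lower part, *TDH3*, the source of the GAP promoter, had 2934, 3336 and 3062 FPKM in Parent_37, against 12266, 10462 and 8751 FPKM in Parent_30. Its log2 fold change was -1.74 (SE 0.63) and its adjusted p of 0.0335 was the highest of the 10. *PGK1*, which forms the first ATP of the lower part, had 294, 217.9 and 363 FPKM in Parent_37, against 3569, 3017 and 2314 FPKM in Parent_30. It had the largest log2 fold change of the 10 genes, at -3.35 (SE 0.64, adjusted p = 0.000945). *GPM1*, which moves the phosphate of 3-phosphoglycerate, had 618, 531 and 581 FPKM in Parent_37, against 5800, 4645 and 3793 FPKM in Parent_30. Its log2 fold change was -3.02 (SE 0.62, adjusted p = 0.00153), close to that of *FBA1*. *ENO1*, which forms phosphoenolpyruvate, had 1178, 1391 and 1096 FPKM in Parent_37, against 6009, 4844 and 3961 FPKM in Parent_30. *CDC19*, whose pyruvate kinase ends the pathway, had 456.2, 386 and 446.3 FPKM in Parent_37, against 2756, 2332 and 2029 FPKM in Parent_30. The log2 fold changes of *ENO1* and *CDC19* were -2.0 and -2.46, and both were past the threshold.

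The standard errors of these 10 genes, 0.50 to 0.79, were wide beside the median of 0.15 over all transcripts, because the 4 groups share 1 estimate of the spread and the G14 libraries varied. With the 2 parent groups fitted alone, all 10 were again called, with adjusted p between 4.33e-06 and 4.94e-05. Over all alternatives the adjusted p ran up to 0.0904, and 6 to 9 genes were called when a parent library was left out. *FBA1*, *GPM1*, *PFK1*, *PGI1*, *PGK1* and *TPI1* were the 6 called without Parent_30 replicate 1 and also without Parent_37 replicate 2.

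**Figure D2:**
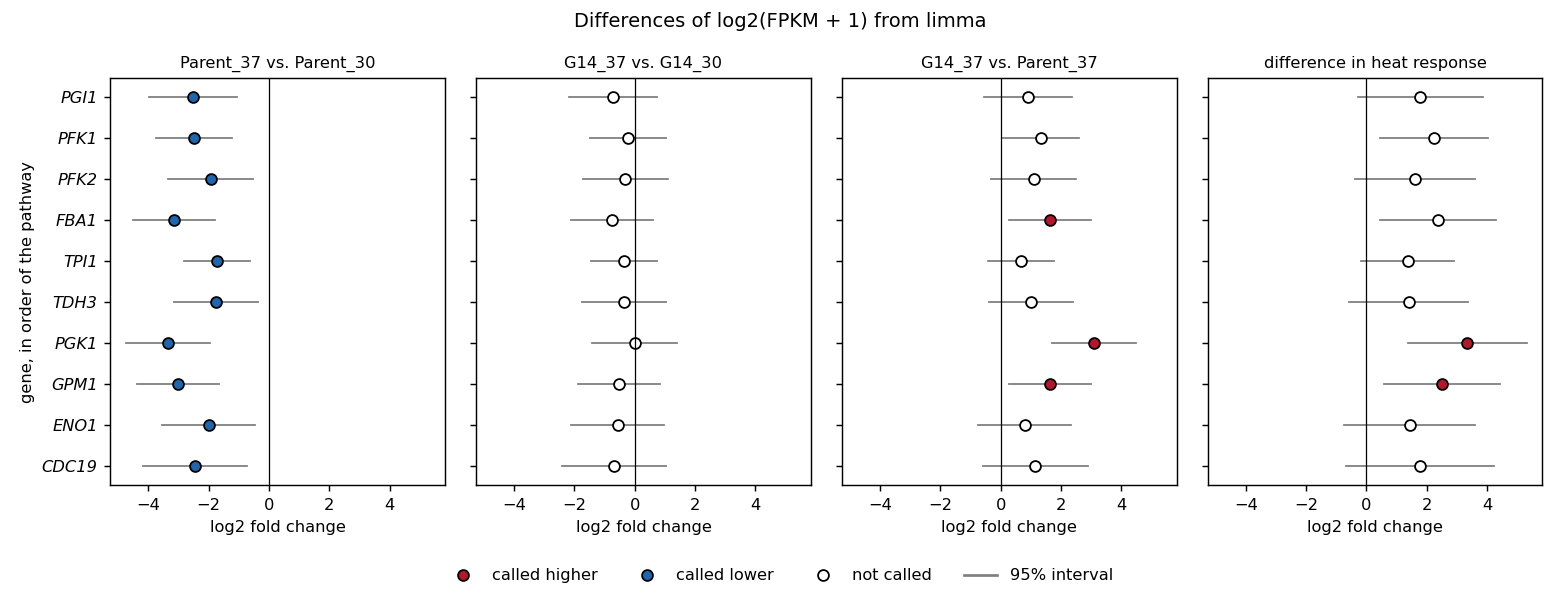
Log2 fold change of the 10 genes in order of the pathway (points) with 95% intervals (lines) from limma, for 3 comparisons and, at the right, for the heat response of G14 minus that of the parent, with filled points for called genes. All 10 points are filled for Parent_37 vs. Parent_30, none for G14_37 vs. G14_30, 3 for G14_37 vs. Parent_37 and 2 for the difference.

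In G14, growth at 37 °C gave no call among the 10 genes. In G14_37 vs. G14_30 limma called 0 of them, by the test above and by voom on recovered fragments, and 0 had an unadjusted p below 0.05, against 3.78% of all transcripts called in either direction. The log2 fold changes lay between -0.76 (*FBA1*) and -0.00 (*PGK1*), with a median of -0.43. The 95% intervals were wide. That of *PGK1* ran from -1.41 to 1.40 and that of *FBA1* from -2.11 to 0.60, so changes of more than 2-fold in either direction for *PGK1*, and a fall of more than 4-fold for *FBA1*, lay within them. The groups overlapped for all 10 genes, whereas 42.1% of all transcripts had G14 groups that did not overlap.

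The cultures of G14 were spread widely. *TDH3* had 2393, 19762 and 5013 FPKM in G14_37, against 9804, 11702 and 4239 FPKM in G14_30. *PGK1* had 1111, 7475 and 1755 FPKM in G14_37, against 3242, 3896 and 1161 FPKM in G14_30. *FBA1* had 709, 4521 and 1466 FPKM in G14_37, against 4301, 4123 and 1277 FPKM in G14_30. In each case G14_37 replicate 2 was the highest G14 library and G14_30 replicate 3 was far below the other replicates of its group. Without G14_37 replicate 2, *CDC19*, *ENO1*, *GPM1* and *PGI1* were called lower, and without G14_37 replicate 1 none was called.

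The 10 genes moved together from culture to culture in G14_37, G14_30 and Parent_30, but had no such shared order in Parent_37. There replicates 1, 2 and 3 were the highest for 3, 3 and 4 of the genes and the lowest for 1, 7 and 2. In Parent_30, replicate 1 was the highest and replicate 3 the lowest for all 10 genes, while 38.9% and 36.3% of all transcripts had those extremes. G14_30 replicate 3 was the lowest of its group for all 10, as it was for 35.9% of all transcripts. G14_37 replicate 2 was the highest of its group for all 10, against 25.2% of all transcripts. Replicate 1 of G14_37 was the lowest for 9, with *TPI1* as the exception, against 38.0% of all transcripts. The highest G14_37 library exceeded the lowest by 4.04-fold for *TPI1* and by 19.3-fold for *CDC19*, which had 211, 4080 and 997 FPKM. The median SD of log2 levels within a group was 1.49 in G14_37, 0.85 in G14_30, 0.14 in Parent_37 and 0.30 in Parent_30 for the 10 genes, against 0.25, 0.11, 0.13 and 0.09 over all transcripts. Only in Parent_37 was the spread of these genes close to that of a usual transcript. Over the 12 libraries the deviations of the 10 genes from their group means correlated pairwise at 0.79 to 0.99, with a median of 0.95 over 45 pairs. This is a description in which the genes of a library share its culture and its scaling. The widely spread G14 libraries weigh most in it and Parent_37 least.

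The members' part of all transcripts showed the same libraries without any scaling between them. Together the 10 genes took 0.826, 5.77 and 1.62% of the summed FPKM in G14_37, and 2.92, 3.38 and 1.17% in G14_30. In the parent they took 0.674, 0.677 and 0.665% in Parent_37, against 3.52, 2.997 and 2.45% in Parent_30. The 3 Parent_37 cultures were nearly equal and lay below all other libraries in this share. In FPKM the sum of the 10 genes was lowest in G14_37 replicate 1, at 6869, against 7027, 7306 and 7131 in Parent_37. That library also had the lowest total over all transcripts, 832036 FPKM. G14_37 spanned almost the whole range of the series, with 1 library near the Parent_37 cultures and another above every Parent_30 culture.

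**Figure D3:**
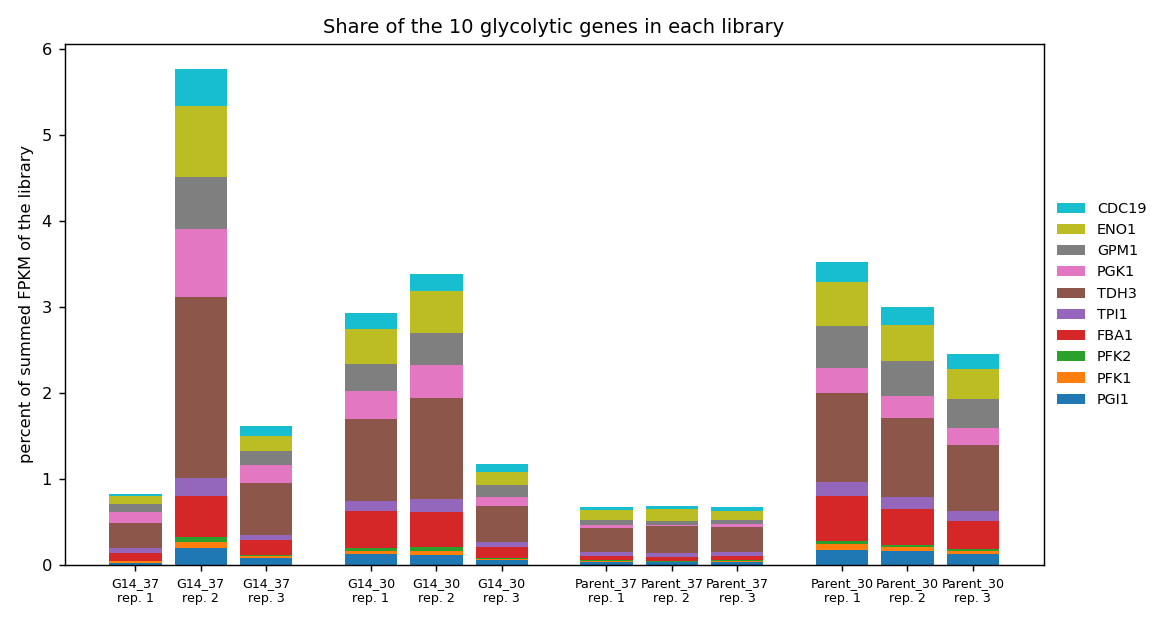
Percent of the summed FPKM of each library held by the 10 glycolytic genes, stacked by gene from *PGI1* at the bottom to *CDC19* at the top, for 3 replicates each of G14_37, G14_30, Parent_37 and Parent_30. Parent_37 libraries hold 0.665 to 0.677%, and G14_37 libraries run from 0.826 to 5.77%.

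G14_37 replicate 1, the library with the lowest level of 9 of the 10 genes in its group, also had the highest levels in the series of 2 gluconeogenic genes and of glycerol kinase. These genes are named here after their values were seen. Phosphoenolpyruvate carboxykinase (PAS_FragB_0061), which opens gluconeogenesis, had 1719, 40.7 and 23.1 FPKM in G14_37, and it had at most 155 FPKM in the other 9 libraries. Fructose-1,6-bisphosphatase (PAS_chr3_0868), which reverses the phosphofructokinase step, had 999, 91.4 and 70.6 FPKM in G14_37 and at most 286 FPKM elsewhere. Glycerol kinase (PAS_chr4_0783), which admits glycerol to the pathway, had 638, 30.6 and 49.9 FPKM in G14_37 and at most 171 FPKM elsewhere. Pyruvate carboxylase (PAS_chr2-2_0024), also a gluconeogenic gene, did not share this. It had 223, 177 and 175 FPKM in G14_37, below the 235 to 445 FPKM of the parent libraries. G14_37 replicate 1 was the highest of its group for 41.4% of all transcripts. The part of these genes in the results on the glycolytic genes was not tested.

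The strain by temperature term asked whether G14 and the parent answered the shift to 37 °C differently. *PGK1* and *GPM1* were called, 2 of 10, against 4.31% of all transcripts called higher. For *PGK1* the heat response of G14 exceeded that of the parent by 3.35 on the log2 scale (SE 0.90, 95% interval 1.36 to 5.33, adjusted p = 0.0148). For *GPM1* it did so by 2.51 (SE 0.87, 95% interval 0.59 to 4.43, adjusted p = 0.0445). *PFK1* at 2.24 and *FBA1* at 2.38 lay just outside the threshold, with adjusted p of 0.0514 and 0.0538. For the other 6 genes the difference lay between 1.36 (*TPI1*) and 1.79 (*PGI1*), their 95% intervals included 0, and their adjusted p were 0.156 to 0.282. The median over the 10 genes was 1.78, against 0.00 over all transcripts. *PGK1* was called under every alternative tried and with each library left out in turn. All these fits kept 1 estimate of the spread for the 4 groups, whose spreads differed, so they are no check of that assumption. *GPM1* was not called without G14_30 replicates 1, 2 or 3, nor without any 1 of the 6 parent libraries, whereas without G14_37 replicate 1 all genes but *ENO1* and *TPI1* were called.

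At 37 °C the strains differed most at *PGK1*. In G14_37 vs. Parent_37 it was higher by 11.8-fold between the group means, and *FBA1* and *GPM1* were higher by 4.11-fold and 4.51-fold. Without G14_37 replicate 2 these ratios of means were 4.92, 2.002 and 1.83, a setting chosen after the data had been seen. The 3 genes were called higher by limma, against 7.42% of all transcripts, and 1 more, *PFK1*, had all 3 G14_37 libraries above all 3 Parent_37 libraries, so that 4 of 10 did not overlap, against 30.0% of all transcripts. *PGK1* had 1111, 7475 and 1755 FPKM in G14_37, against 294, 217.9 and 363 FPKM in Parent_37, and even the lowest G14 culture was more than 3 times the highest parent culture. Its log2 fold change was 3.09 (SE 0.64, 95% interval 1.69 to 4.50, adjusted p = 0.00167), and 2.29 to 3.66 with each library left out. *GPM1* had 731, 5690 and 1382 FPKM in G14_37, against 618, 531 and 581 FPKM in Parent_37, so G14_37 replicate 1 lay only a little above the parent. Its log2 fold change was 1.64 (SE 0.62, adjusted p = 0.0407). *FBA1* had 709, 4521 and 1466 FPKM in G14_37, against 565, 474 and 591 FPKM in Parent_37, with a log2 fold change of 1.63 (SE 0.62, adjusted p = 0.0411).

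*PFK1* had 153, 630 and 160 FPKM in G14_37, against 94.2, 86.2 and 113 FPKM in Parent_37, and its log2 fold change of 1.35 missed the threshold (adjusted p = 0.0634). For *PGI1*, *PFK2*, *TPI1*, *TDH3*, *ENO1* and *CDC19* the strains overlapped at 37 °C, with log2 fold changes between 0.69 (*TPI1*) and 1.15 (*CDC19*), and their adjusted p were 0.161 to 0.350. *ENO1* had 808, 7753 and 1497 FPKM in G14_37, against 1178, 1391 and 1096 FPKM in Parent_37, and *PGI1* had 158, 1796 and 636 FPKM in G14_37, against 310, 270 and 326 FPKM in Parent_37. Both had 1 G14_37 culture below the parent and the others above it. The median log2 fold change of the 10 genes was 1.13, against 0.05 over all transcripts. *PGK1* alone was called when the 2 groups were fitted alone, without G14_37 replicate 2, or without any 1 of the 6 parent libraries. Without G14_30 replicate 1 the call of *GPM1* was lost, without G14_37 replicate 3 that of *FBA1*, and without G14_37 replicate 1 all genes but *ENO1* and *TPI1* were called.

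At 30 °C the strains were not distinguished by the test. In G14_30 vs. Parent_30 limma called 0 of 10, also by voom, and 0 had an unadjusted p below 0.05, against 7.36% of all transcripts called in either direction. The log2 fold changes ran from -0.89 (*PFK1*) to -0.25 (*PGK1*), with a median of -0.66 against -0.03 over all transcripts. *PGI1*, *GPM1* and *CDC19* had every G14_30 library below every Parent_30 library, 3 of 10 against 31.0% of all transcripts. *GPM1* had 3190, 3701 and 1400 FPKM in G14_30, against 5800, 4645 and 3793 FPKM in Parent_30. *PGI1* had 1215, 1163 and 580 FPKM in G14_30, against 2054, 1762 and 1415 FPKM in Parent_30. In both, G14_30 replicate 3 was the farthest from the parent.

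G14 at 37 °C was also set against the parent at its usual growth temperature. In G14_37 vs. Parent_30 limma called 0 of 10, also by voom, against 12.9% of all transcripts called in either direction, and 3 genes, *FBA1*, *GPM1* and *PGI1*, had an unadjusted p below 0.05. The log2 fold changes ran from -1.61 (*PGI1*) to -0.26 (*PGK1*). In 0 of the 10 genes did all G14_37 libraries lie below all Parent_30 libraries, against 29.4% of all transcripts, because G14_37 replicate 2 exceeded at least 1 Parent_30 library in each gene. Without that library 9 genes were called lower, all but *PGK1*, and without G14_30 replicate 3 only *FBA1* was. The share of all transcripts called in these settings is not given, so the counts only describe how the calls depend on single libraries. The comparisons above share groups, so their values are not independent of each other.

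The ratio of each gene to *TDH3* in the same library does not depend on the scaling between libraries, and these ratios, given without a test, differed between groups for some members and not for others. *PGK1* stood at 0.464, 0.378 and 0.350 of *TDH3* in G14_37, and at 0.331, 0.333 and 0.274 in G14_30. In the parent it stood at 0.1002, 0.0653 and 0.118 of *TDH3* in Parent_37, against 0.291, 0.288 and 0.264 in Parent_30. The 3 G14_37 cultures, which differed 6.73-fold in *PGK1* itself, were thus close together in this ratio and above every other library. The mean log2 ratio was higher in G14_37 than in Parent_37 by 2.10, and lower in Parent_37 than in Parent_30, with a difference of -1.61.

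*FBA1* and *GPM1* were also higher relative to *TDH3* in G14_37 than in Parent_37, but otherwise differed from *PGK1*. *FBA1* stood at 0.296, 0.229 and 0.292 of *TDH3* in G14_37, against 0.193, 0.142 and 0.193 in Parent_37. *GPM1* stood at 0.305, 0.288 and 0.276 of *TDH3* in G14_37, against 0.211, 0.159 and 0.190 in Parent_37. In Parent_30 the ratio was 0.506, 0.450 and 0.425 for *FBA1* and 0.473, 0.444 and 0.433 for *GPM1*, so for both genes G14_37 lay between the parent groups, whereas for *PGK1* it lay above both. In G14_30 the ratio was 0.439, 0.352 and 0.301 for *FBA1* and 0.325, 0.316 and 0.330 for *GPM1*. The mean log2 ratio of G14_37 minus that of G14_30 was -0.41 for *FBA1* and -0.16 for *GPM1*, with every G14_37 library below every G14_30 library, and it was 0.34 for *PGK1*, with every G14_37 library above. For the other 6 genes the ratios of G14_37 and Parent_37 overlapped. A ratio to *TDH3* that was higher in every G14_37 library than in every Parent_37 library was found for 0.256% of all transcripts. *TDH3* itself differed 8.26-fold between the G14_37 libraries and averaged 2.91-fold above Parent_37. A transcript that did not vary with *TDH3* could hardly have such a ratio, so this share is no measure of how unusual the members were. In Parent_37 vs. Parent_30, 7 of the 9 ratios were lower in every Parent_37 library, and those of *PFK2* and *TPI1* overlapped. This was the case for 1.38% of all transcripts, and *TDH3* itself was called lower in that comparison. The ratio of a transcript with an unchanged level would rise there, so this share has the same limit. Within the summed FPKM of the 10 genes, *PGK1* took 14.3 ± 1.68% in G14_37, 10.7 ± 0.92% in G14_30, 4.08 ± 1.06% in Parent_37 and 8.54 ± 0.24% in Parent_30 (SD, n = 3 each). *TDH3* took 36.1 ± 1.11% in G14_37, 34.4 ± 1.33% in G14_30, 43.5 ± 2.003% in Parent_37 and 30.4 ± 1.01% in Parent_30 (SD, n = 3 each).

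**Figure D4:**
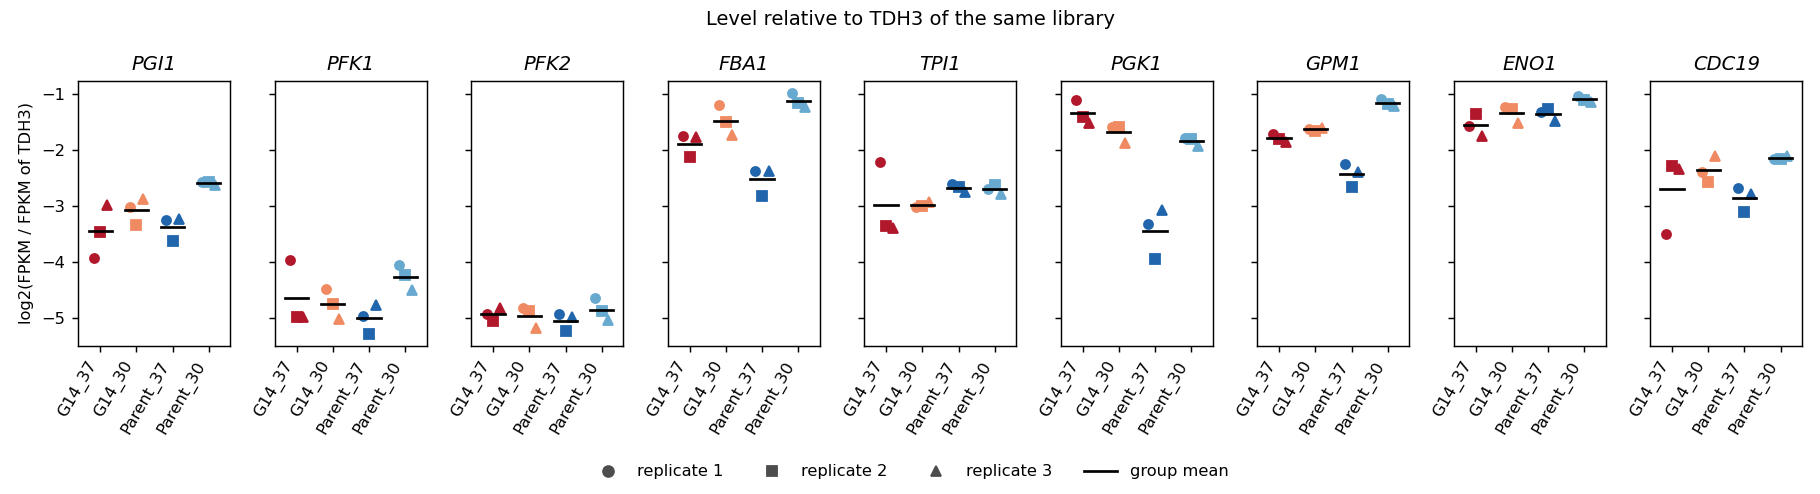
Log2 ratio of each of the other 9 genes to *TDH3* of the same library, with G14_37, G14_30, Parent_37 and Parent_30 from left to right, a symbol per replicate and a line at the group mean. For *PGK1*, the 3 Parent_37 libraries lie below all others and the 3 G14_37 libraries above all others.

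Around the pathway, 44 genes of glucose uptake, hexose phosphate metabolism and the branches at pyruvate and glycerol were listed by their descriptions. In Parent_37 vs. Parent_30, 8 of them rose and 8 fell, against 14% and 7.56% of all transcripts, and their median change was -0.41 on the log2 scale, against 0.04 over all transcripts. In G14_37 vs. G14_30, 3 rose and 0 fell, against 2.22% and 1.56% of all transcripts. In G14_30 vs. Parent_30, 0 rose and 1 fell, against 2.87% and 4.49%. In G14_37 vs. Parent_37, 7 were higher and 10 lower, against 7.42% and 14.3%. In G14_37 vs. Parent_30, 3 were higher and 6 lower, against 5.91% and 7.01%. In the difference of heat responses 5 were called higher and 3 lower, against 4.31% and 11.1%. Without G14_37 replicate 1, a setting chosen after the data had been seen, 1 rose and 0 fell in G14_37 vs. G14_30, 0 rose and 4 fell in G14_30 vs. Parent_30, and 11 were called higher and 3 lower in the difference. The shares of all transcripts in this setting are not given. That library is not part of G14_30 vs. Parent_30, so counts in this setting also move with the shared estimate of the spread. Of the 54 calls in the list, 43 were kept without that library and 34 were kept with each of the 12 libraries left out in turn.

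Glucose enters through transporters and is phosphorylated by hexokinase. The most abundant gene of this group, a high-affinity glucose transporter (PAS_chr1-4_0570), had 914, 716 and 917 FPKM in Parent_37, against 4923, 3851 and 2813 FPKM in Parent_30, and fell with a log2 fold change of -2.16 (SE 0.55, adjusted p = 0.00589). The other called genes of the group rose. A putative hexose transporter (PAS_chr2-1_0054) had 153, 205 and 212 FPKM in Parent_37, against 57.9, 53.5 and 50.6 FPKM in Parent_30 (log2 fold change 1.78), and a moderate-affinity hexose transporter (PAS_chr1-3_0004) rose by 2.10 on the log2 scale. The hexokinase PAS_chr1-4_0447 rose by 1.34, with a mean of 46.5 FPKM in Parent_37, against 17.7 in Parent_30. The far more abundant hexokinase-2 (PAS_chr1-4_0561) averaged 965 FPKM in Parent_37, against 1320 in Parent_30, and was not called (-0.43). In G14_37 vs. Parent_37 the 2 hexose transporters were lower, with log2 fold changes of -2.79 and -2.06, as was hexokinase-2 (PAS_chr1-4_0561) at -1.36 (-1.05 and not called without G14_37 replicate 3), while a plasma membrane glucose sensor (PAS_chr1-1_0300) was higher by 1.38. PAS_chr1-3_0004 was also the 1 gene of the list lower in G14_30 vs. Parent_30 (-1.30), and it rose in G14_37 vs. G14_30 (1.34). PAS_chr2-1_0054 was also lower in G14_37 than in Parent_30 (-1.01), a call lost without G14_37 replicate 1 (-0.93) or Parent_30 replicate 1 (-0.96).

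For 2 of the enzymes the table holds a further gene with the same description. Reads of such genes can be shared, so their levels are uncertain to that degree. Whether they serve the same pathway as the members was not tested. The further aldolase gene (PAS_chr1-1_0319) had 79.8, 89.3 and 89.2 FPKM in Parent_37, against 30.3, 34.7 and 27.7 FPKM in Parent_30, and rose by 1.45 on the log2 scale (SE 0.15, adjusted p = 1.36e-05), while *FBA1* fell. In G14_37 it had 34.5, 24.5 and 23.2 FPKM and was lower than in Parent_37, with a log2 fold change of -1.64 (SE 0.15, adjusted p = 5.13e-06), while *FBA1* was higher. The direction of this less abundant aldolase gene was thus opposite to that of *FBA1* in both comparisons. The further phosphoglycerate mutase gene (PAS_chr3_0693) had 91.1, 116 and 110 FPKM in Parent_37, against 135, 140 and 107 FPKM in Parent_30, and was not called in any comparison.

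Fructose-2,6-bisphosphate is the activator of phosphofructokinase, made and removed by dedicated enzymes. None of its 5 genes was called in the parent. The most abundant, a 6-phosphofructo-2-kinase gene (PAS_FragB_0064), had 79.5, 462 and 221 FPKM in G14_37, against 523, 530 and 587 FPKM in Parent_37, and was lower (log2 fold change -1.44), as it was against Parent_30 (-2.07). The first of these calls was lost without G14_37 replicate 1, at -0.77, and without any 1 of the Parent_37 libraries, at -1.47 to -1.38, while the second was kept with every library left out. A gene similar to the kinase and phosphatase enzymes (PAS_chr4_0266) was higher in G14_37 than in Parent_37 by 1.38, at 179, 56.1 and 47.8 FPKM in G14_37, against 31.996, 28.4 and 28.2 FPKM in Parent_37. Fructose-2,6-bisphosphatase (PAS_chr2-1_0110) was higher in G14_37 than in G14_30 by 1.13, at 149, 51.0 and 39.8 FPKM in G14_37, against 29.9, 29.6 and 31.1 FPKM in G14_30. In each of the last 2 genes G14_37 replicate 1 was far above the other replicates, and without it both calls were lost, with log2 fold changes of 0.79 and 0.56. The call of PAS_chr2-1_0110 was also lost without any 1 of the G14_30 or parent libraries, at 1.12 to 1.15. Of 3 gluconeogenic genes, pyruvate carboxylase (PAS_chr2-2_0024), the most abundant, was lower in G14_37 than in Parent_37, with a log2 fold change of -1.02 that was -0.99 to -0.93 and not called without G14_37 replicates 2 or 3 or Parent_37 replicates 2 or 3.

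At pyruvate, the pathway branches to fermentation and to the pyruvate dehydrogenase complex, and 5 of 12 genes fell and 1 rose in Parent_37 vs. Parent_30, against 7.56% and 14% of all transcripts. The most abundant, a gene described as mitochondrial alcohol dehydrogenase (PAS_chr2-1_0472), was called in the same comparisons as *PGK1*. It had 1192, 1306 and 1015 FPKM in Parent_37, against 7614, 5913 and 4580 FPKM in Parent_30 (log2 fold change -2.34, SE 0.74, adjusted p = 0.0180). It had 4444, 14327 and 2652 FPKM in G14_37 and was higher than in Parent_37 by 2.25 (SE 0.74, adjusted p = 0.0229). The call in the parent was lost without Parent_30 replicate 1 or Parent_37 replicate 3 (-2.16 and -2.24), and that between the strains without G14_37 replicate 2 (1.56) or any 1 of the Parent_37 libraries (2.15 to 2.33). The beta and alpha subunits of the E1 component of pyruvate dehydrogenase (PAS_chr1-4_0593 and PAS_chr2-2_0294) and its E2 component (PAS_chr1-1_0050) fell in the parent with log2 fold changes of -2.05, -1.70 and -1.63. The E2 gene was higher in G14_37 than in Parent_37 by 1.12, a call lost without G14_37 replicates 2 or 3 (0.77 and 0.92) or Parent_37 replicate 2. Both E1 genes were lower in G14_37 than in Parent_30, at -1.14 and -1.02. The beta subunit gene had 183, 663 and 556 FPKM in G14_37, against 975, 848 and 871 FPKM in Parent_30, and the alpha subunit gene had 221, 536 and 530 FPKM in G14_37, against 852, 774 and 803 FPKM in Parent_30. Replicate 1 was the lowest G14_37 library in both, and without it neither gene was called, with log2 fold changes of -0.56 and -0.60. The beta subunit call was also lost without any 1 of the Parent_30 libraries (-1.18 to -1.07), and the alpha subunit call without Parent_30 replicate 1 (-0.99).

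Among NADPH-dependent alcohol dehydrogenases of the same list, PAS_chr3_0006 rose in the parent by 1.82 and was lower in G14_37 than in Parent_37, at -2.44. PAS_chr4_0576 went the other way, with log2 fold changes of -1.36 in the parent and 1.64 between the strains at 37 °C, and PAS_chr1-1_0357 was lower in G14_37 than in Parent_37, at -1.08 (-0.98 and not called without G14_37 replicate 1). In the glycerol branch, NAD-dependent glycerol-3-phosphate dehydrogenase (PAS_chr2-2_0111), the key enzyme of glycerol synthesis, had 68.1, 74.2 and 70.8 FPKM in Parent_37, against 332, 297 and 275 FPKM in Parent_30, and fell with a log2 fold change of -2.07 (SE 0.22, adjusted p = 1.94e-05). It was lower by a smaller amount in G14_37 vs. Parent_30 (-1.39). The most abundant gene of that branch, mitochondrial glycerol-3-phosphate dehydrogenase (PAS_chr3_0579), had 1424, 117 and 134 FPKM in G14_37 and was not called in any comparison.

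At glucose-6-phosphate, where the pentose phosphate, glycogen and trehalose routes leave, 3 of 12 genes rose and 1 fell in Parent_37 vs. Parent_30, against 14% and 7.56% of all transcripts. The most abundant, 6-phosphogluconate dehydrogenase (PAS_chr3_0277), fell (-1.11), and a phosphoglucomutase gene (PAS_chr2-1_0771), a transketolase gene (PAS_chr3_0834) and a transaldolase gene (PAS_chr2-2_0338) rose by 1.80, 1.30 and 1.29 on the log2 scale. The latter 2 were less abundant than the main genes of the same description, with means of 75.5 and 24.5 FPKM in Parent_37. Whether they serve the same pathway as those genes was not tested. The main transketolase gene (PAS_chr1-4_0150) averaged 285 FPKM in Parent_37, against 546 in Parent_30 (log2 fold change -0.94). The main transaldolase gene (PAS_chr2-2_0337) averaged 996 FPKM in Parent_37, against 1693 in Parent_30 (-0.77). Both main genes were thus lower at 37 °C, by less than the threshold for a call. The call of the transaldolase gene PAS_chr2-2_0338 was lost without Parent_30 replicate 1 or Parent_37 replicates 2 or 3 (1.23 to 1.28). The phosphoglucomutase gene PAS_chr2-1_0771 was lower in G14_37 than in Parent_37 (-1.18). The other phosphoglucomutase gene (PAS_chr1-4_0264) had 341, 223 and 110 FPKM in G14_37, 103, 88.4 and 57.8 FPKM in G14_30 and 111, 104 and 77.8 FPKM in Parent_37. It was called higher in G14_37 than in Parent_37 by 1.07 and than in G14_30 by 1.32, and both calls were lost without G14_37 replicate 1, at 0.70 and 0.95. The first was also lost without G14_37 replicate 2 or Parent_37 replicates 2 or 3, down to 0.92, and the second without G14_37 replicate 2 or G14_30 replicates 2 or 3, down to 1.08. Of the trehalose-6-phosphate complex, the phosphatase subunit (PAS_chr1-3_0054) was lower in G14_37 than in Parent_37 (-1.21, and -0.95 and not called without G14_37 replicate 1) and a regulatory subunit (PAS_chr2-1_0739) was higher by 1.14. The minor transaldolase gene PAS_chr2-2_0338 was higher in G14_37 than in Parent_30 by 1.56, with 76.8, 16.2 and 20.8 FPKM in G14_37, against 8.61, 9.70 and 10.1 FPKM in Parent_30. Without G14_37 replicate 1 that difference was 0.89 and was not called.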

How the data were processed

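The authors mapped clean paired-end reads to the *K. phaffii* genome and gene models of PICHIAGENOME, and their processing notes name HISAT2 2.0.5 and featureCounts 1.5.0-p3. For the strand setting and the program that gave FPKM, nothing is stated in the sources used here. The deposited FPKM of the authors already held a scaling between libraries, since median-of-ratios factors computed on them were 0.9986 in all 12 libraries. FPKM times gene length came in whole steps for 100% of values (tolerance 0.05), which gave the fragments per library. A table of transcripts outside the annotation, with positions only, was not used.

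log2(FPKM + 1) of 5080 transcripts was fitted with limma 3.58.1 in R 4.3.3 (a mean per group, trend, 8 residual degrees of freedom). No transcript failed the minimum mean of 1 FPKM. Replicates are biological according to the study. Tests are two-sided with Benjamini-Hochberg adjustment. The text names all 10 members, every gene of the pathway list that was called, the most abundant gene of each of its groups, and the 3 transcripts most like the members and most like *PGK1*. The main transketolase and transaldolase genes were added after their values had been seen. The list came from patterns on gene descriptions, with 9 of 53 matches dropped because they named another activity. The members and lists were chosen with earlier results of these data known. Alternatives were a pseudocount of 0.1, no filter or a minimum of 10 FPKM, TPM and median-of-ratios scaling, limma voom on recovered fragments, the replicate number as a block, the compared groups alone, adjusted p alone, and each library left out. Leaving out libraries for the pathway list and for the ratios of means was chosen after seeing the data.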

Additional observations from a re-analysis of the deposited data

Results flagged for a closer look

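The heat response, as the log2 fold change at 37 °C over 30 °C, differed between G14 and the parent by the limma test of the strain by temperature term for 2 of the glycolytic genes, by 3.35 for *PGK1* (PAS_chr1-4_0292) and by 2.51 for *GPM1* (PAS_chr3_0826), with positive values where the response of G14 was the higher one. Every other glycolytic gene also had a positive difference, but its adjusted p was above 0.05.

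The same test called 5 of the 44 genes around the pathway higher and 3 lower, against 4.31% and 11.1% of all transcripts. The difference was 3.09 for the alcohol dehydrogenase gene PAS_chr2-1_0472, 1.61 for PAS_chr4_0266, which is similar to the enzymes of fructose-2,6-bisphosphate, and 1.54 for the glycerol-3-phosphate dehydrogenase gene PAS_chr2-2_0111. It was 1.34 for the NADPH-dependent alcohol dehydrogenase gene PAS_chr4_0576 and 1.09 for the trehalose complex gene PAS_chr2-1_0739. It was negative for the hexose transporter gene PAS_chr2-1_0054 (-2.15), for the NADPH-dependent alcohol dehydrogenase gene PAS_chr3_0006 (-1.66) and for the phosphoglucomutase gene PAS_chr2-1_0771 (-1.47). With 1 library left out, the call of PAS_chr2-1_0472 was lost without any 1 of the parent libraries (2.91 to 3.27), G14_30 replicate 3 (2.16) or G14_37 replicate 2 (2.40). That of PAS_chr4_0266 was lost without any 1 of the parent or G14_30 libraries (1.58 to 1.67), and that of PAS_chr2-1_0739 without Parent_30 replicate 1 (0.98), G14_30 replicate 3 (0.89) or G14_37 replicate 2 (0.95).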

How the results depend on the processing

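Among the glycolytic genes, the number called lower in Parent_37 vs. Parent_30 was 6 to 10 with each library left out. It was 0 to 4 in G14_37 vs. G14_30 and 0 to 9 in G14_37 vs. Parent_30. The number called higher in G14_37 vs. Parent_37 was 1 to 8 with each library left out and 1 with the compared groups alone, and it was 4 by TPM scaling, by voom and with the replicate block. In the difference of heat responses it was 1 to 8 with each library left out, 4 by TPM scaling, and 3 by voom and with the replicate block. Shares of all transcripts called are given for the main fit only. Counts with a library left out can thus not be set against the calls over all transcripts in the same setting. Whether the replicate numbers pair the libraries could not be settled from the values. Deviations of same-numbered libraries correlated at -0.216 to 0.671 and never above 0.1 in all 3 pairs of a comparison, and 2 to 4 of 6 libraries per comparison correlated best with their own number. In G14_30 vs. Parent_30 the correlations were 0.612, 0.008 and 0.671 for replicates 1, 2 and 3, so a link between some same-numbered libraries was not excluded. TPM scaling moved the median log2 fold change of all transcripts to 0.22 in G14_37 vs. G14_30, 0.16 in Parent_37 vs. Parent_30, 0.15 in G14_30 vs. Parent_30, 0.34 in G14_37 vs. Parent_37, 0.39 in G14_37 vs. Parent_30 and 0.10 in the difference, and members are to be read relative to it. It turned *PGK1* to 0.22 in G14_37 vs. G14_30 and to 0.16 in G14_37 vs. Parent_30. Median-of-ratios scaling and dropping the filter could not change a call, since the factors were equal in all 12 libraries and no transcript failed the filter. Leaving out 1 library turned the sign of values that were not called. In G14_37 vs. G14_30 the ranges were -1.73 to 0.40 for *CDC19*, -1.50 to 0.13 for *ENO1*, -1.34 to 0.14 for *GPM1*, -0.90 to 0.12 for *PFK1*, -1.09 to 0.36 for *PFK2*, -1.56 to 0.19 for *PGI1*, -0.81 to 0.57 for *PGK1*, -1.18 to 0.34 for *TDH3* and -1.002 to 0.0039 for *TPI1*. In G14_30 vs. Parent_30 they were -0.83 to 0.050 for *PFK2*, -0.59 to 0.28 for *PGK1* and -0.69 to 0.043 for *TDH3*, in G14_37 vs. Parent_30 -1.06 to 0.31 for *PGK1*, and in G14_37 vs. Parent_37 -0.14 to 1.49 for *ENO1*. The spread between the G14 cultures, and not fragment number, limits what 3 libraries per group can show.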

Other observations

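Outside the glycolytic genes, the transcripts whose levels followed the mean of the 10 standardised members most closely over the 12 libraries were PAS_chr2-1_0667 (Pearson r 0.98), described as a negative regulator of the iron regulon, PAS_chr4_0624 (0.98), of unknown function, and PAS_chr2-2_0333 (0.97), a putative kinase. *PGK1* was the member least like that mean, at 0.92, and *GPM1* the most like it, at 0.99. The transcripts most like *PGK1* were PAS_chr2-1_0093 (0.98), GDP-mannose pyrophosphorylase, which makes the mannose donor of glycosylation, PAS_chr3_1123 (0.96), similar to a GTP-binding protein, and PAS_chr1-1_0195 (0.96), subunit D of the vacuolar proton pump. All 3 were closer to *PGK1* than any other member was, of which *GPM1* came nearest at 0.93. They were picked as the closest of all transcripts outside the members, so this order does not set *PGK1* apart from its pathway. The libraries of a group are not independent points, so these values are a description.

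The genes beside the members on the chromosomes were also looked at. Among the 10 nearest genes of each member, the median log2 fold change in Parent_37 vs. Parent_30 lay between -0.42 (*TPI1*) and 0.63 (*PFK2*), and 0 to 2 of the 10 were called lower.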
